A study of Mus musculus with 2 samples.

Results

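Mir183, Mir96 and Mir182 are 3 microRNA (miRNA) genes that lie close together on mouse chromosome 6 and are known as a sensory cluster. They were taken by gene identifier from the count tables, where they are 3 of 1973 gene rows, and all 3 were among the 288 rows with a mean of 10 counts per 1000000 sense counts (CPM) or more. The cluster was selected on the sense CPM of its genes in these libraries, known from earlier results, so its levels and library differences are given as a description without a test. The tissue was heart from healthy embryos of mouse strain B6NCrl at 13.5 days, with males and females pooled. MicroRNA-seq, which counts RNAs shorter than 30 nucleotides, was done on total RNA in 2 libraries. The labels number them as biological replicates with a biosample record each and a shared donor record. They carry no second genotype, treatment or age, so the data hold 1 group (n = 2) and no comparison between conditions.

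A miRNA gene is transcribed into a hairpin, from which a short mature strand is cut, and bases 2 to 8 of that strand (the seed) pair with target messenger RNAs. Mir183, Mir96 and Mir182 are conserved and are made from a shared primary transcript. The cluster is known from photoreceptors, the hair cells of the inner ear, olfactory epithelium and sensory ganglia, and changes in the seed of miR-96 cause hearing loss in mice and humans. It is not counted among the miRNAs typical of heart muscle.

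The mature strands of the 5′ arms are shown first because their seeds differ while the genes are neighbours. Capitals mark the seed. Sequences are from RefSeq (GRCm38.p6), which held all 3 genes.
miR-183-5p: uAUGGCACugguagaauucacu
miR-96-5p: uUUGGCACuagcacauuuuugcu
miR-182-5p: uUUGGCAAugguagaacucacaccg

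Bases 3 to 7, UGGCA, were the same in the 3 strands. With positions counted from 1 at the 5′ end of the mature strand, the seeds of miR-182-5p and miR-96-5p differed by A8C, and those of miR-96-5p and miR-183-5p by U2A. Those of miR-182-5p and miR-183-5p differed by both U2A and A8C. Outside the seed the likeness ran the other way: aligned from the 5′ end, miR-182-5p and miR-183-5p were equal at 13 of 15 positions (86.7%), against 6 of 16 for miR-182-5p and miR-96-5p and 7 of 15 for miR-96-5p and miR-183-5p. Of 1738 mature arms in the RefSeq table, 5 (0.288%) had UGGCA at bases 3 to 7. The seeds of miR-183-5p and miR-182-5p occurred in no other arm. The seed of miR-96-5p also occurred in miR-1271-5p, which is shown because it is the only other arm with a seed of the cluster.
miR-1271-5p: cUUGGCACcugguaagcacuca

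The gene row of miR-1271 was empty: 0 sense counts were found in either library, a result compatible with at most 0.539 CPM (replicate 1) or 0.497 CPM (replicate 2).

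The 3 hairpins lie on the minus strand of chromosome 6 (mm10) in the order Mir183, Mir96, Mir182 along the direction of transcription. Mir183 (ENSMUSG00000065619.2) spans chr6:30169668-30169737, Mir96 (ENSMUSG00000065586.1) chr6:30169446-30169551 and Mir182 (ENSMUSG00000076361.1) chr6:30165918-30165992. The gap from Mir183 to Mir96 is 116 nucleotides and that from Mir96 to Mir182 is 3453, so the cluster covers 3820 nucleotides. No other gene of GENCODE M21 overlaps this span on either strand, so the hairpins are intergenic in that annotation. Distances were measured to 3 named genes nearby, without a search for the nearest. Rncr4, a long noncoding RNA on the opposite strand, starts 3155 nucleotides from the cluster. Nrf1 lies on the opposite strand at 12459 nucleotides, and Ube2h on the same strand at 41551.

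**Figure D1:**
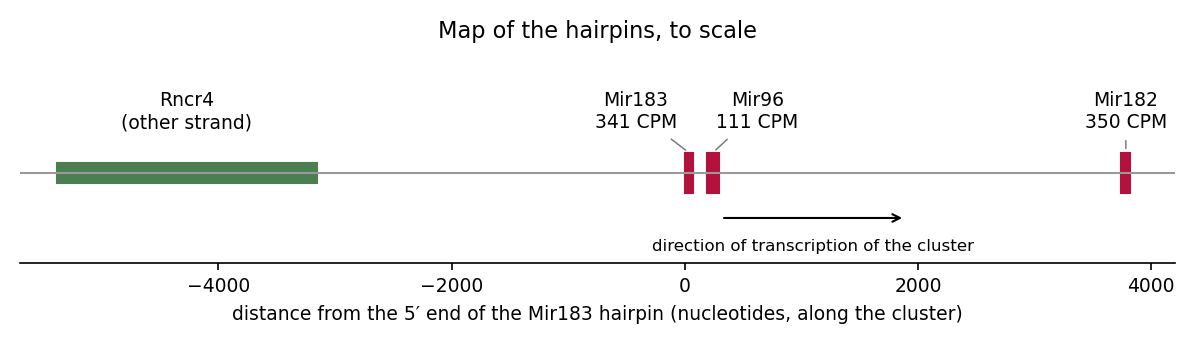
Map of the cluster, with distance in nucleotides from the 5′ end of the Mir183 hairpin on the x axis. Red boxes are the 3 hairpins with their mean CPM, and the green box is Rncr4 on the other strand; Mir183 and Mir96 lie 116 nucleotides apart and Mir182 lies 3453 nucleotides further on.

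The hairpins are shown with both mature arms in capitals, because each gene row counts reads from the whole hairpin and the tables do not separate its arms.
Mir183: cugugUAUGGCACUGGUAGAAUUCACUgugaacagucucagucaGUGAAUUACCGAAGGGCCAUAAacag
Mir96: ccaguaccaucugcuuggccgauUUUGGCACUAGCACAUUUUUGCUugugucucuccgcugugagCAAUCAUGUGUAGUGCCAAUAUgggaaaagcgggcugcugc
Mir182: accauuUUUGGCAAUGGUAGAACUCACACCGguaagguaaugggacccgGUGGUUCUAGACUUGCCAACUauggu

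No hairpin of the cluster shared a run of 20 nucleotides with any other of the 2202 miRNA genes compared. None of the 6 mature arms occurred on either strand of another gene's transcript among the 141767 annotated transcripts. Reads of such copies could fall into the class of multi-mapping reads. The rest of the genome was not searched.

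All 3 genes were detected in both embryonic heart libraries, from 85.6 CPM for Mir96 in replicate 2 to 412 CPM for Mir183 in replicate 1. Mir182 held 2160 sense counts in replicate 1 (388 CPM) and 1887 in replicate 2 (312 CPM), a mean of 350 ± 53.3 CPM (SD, n = 2). Mir183 held 2296 (412 CPM) and 1630 (269.9 CPM), a mean of 341 ± 101 CPM. Mir96 held 758 (136 CPM) and 517 (85.6 CPM), a mean of 111 ± 35.7 CPM. Mir96 was the lowest of the cluster in both libraries, and its values did not overlap with those of the other genes. Mir182 and Mir183 did not differ beyond the spread between libraries, and their order was reversed between replicate 1 and replicate 2. By mean CPM over all rows, Mir182 ranked 118, Mir183 120 and Mir96 171.

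The cluster as a whole took 0.0936% of all sense counts in replicate 1 (exact Clopper-Pearson 95% interval 0.0911 to 0.0962) and 0.0668% in replicate 2 (0.0648 to 0.0689), a mean of 0.0802% ± 0.0190. These intervals cover counting error only. Within the cluster, Mir183 gave 42.2% ± 2.57 of the counts, Mir182 44.1% ± 3.78 and Mir96 13.7% ± 1.22. Because the tissue was bulk heart, few cells with much of these miRNAs and many cells with little cannot be told apart. Counts on the opposite strand were at most 3 at each gene in each library.

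**Figure D2:**
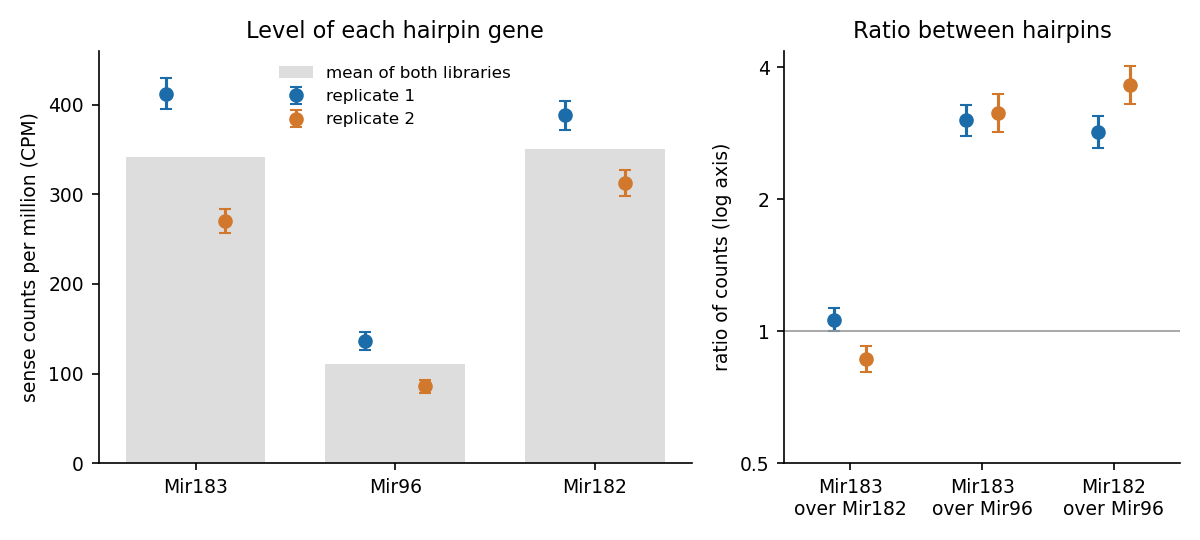
Left, sense CPM of each gene on the y axis, with points for the libraries (bars are exact Poisson 95% intervals, counting error only) and grey bars for their mean. Right, the ratio of counts between hairpins on a log axis with exact conditional 95% intervals; Mir183 over Mir96 is 3.03 and 3.15, while Mir183 over Mir182 lies above 1 in replicate 1 and below 1 in replicate 2.

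Ratios between the hairpins do not depend on sequencing depth, since both genes are counted in the same library. How evenly the method captures different mature strands was not measured. Ratios between genes, here and below, are therefore ratios of counts and need not equal ratios of RNA in the tissue. Mir183 over Mir96 was 3.03 in replicate 1 (exact conditional 95% interval 2.79 to 3.29) and 3.15 in replicate 2 (2.85 to 3.49), a mean log2 ratio of 1.63 ± 0.0409 (SD, n = 2). These intervals overlapped, and the ratio of these closest neighbours was nearly the same in both libraries. Mir182 over Mir96 was 2.85 (2.62 to 3.10) and 3.65 (3.31 to 4.03), a mean log2 ratio of 1.69 ± 0.253. Mir183 over Mir182 was 1.06 (1.00 to 1.13) and 0.864 (0.808 to 0.923), a mean log2 ratio of -0.06 ± 0.212. The intervals of the libraries did not overlap for either ratio that contains Mir182, so in these the libraries differed by more than counting error.

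The size of these shifts was set beside other clusters. Between the libraries, the log2 ratio of Mir183 over Mir96 shifted by 0.06, that of Mir183 over Mir182 by 0.30 and that of Mir182 over Mir96 by 0.36. Among 423 gene pairs within 29 other clusters, each gene at a mean of 50 CPM or more, the median shift was 0.15. A smaller shift than that of Mir183 over Mir96 occurred in 19.9% of those pairs. Smaller shifts than those of Mir183 over Mir182 and Mir182 over Mir96 occurred in 80.4% and 87.7%. Pairs share genes and 300 of them come from the Mir379 cluster, so these shares are a description. In the other clusters the median shift was 0.15 for the 37 pairs whose starts lie at most 500 nucleotides apart and 0.15 for the 386 pairs further apart.

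All 3 genes were higher in replicate 1 than in replicate 2 on total counts. The ratio of CPM was 1.59 for Mir96 (exact conditional 95% interval 1.42 to 1.78), 1.53 for Mir183 (1.43 to 1.63) and 1.24 for Mir182 (1.17 to 1.32), and 1.40 (1.34 to 1.46) for the summed cluster. With 1 CPM added to each value, Mir96 and Mir183 passed a 1.5-fold difference and Mir182 did not. Across all 288 genes at 10 CPM or more, 17 (5.90%) passed that difference in either direction, 14 of them (4.86%) higher in replicate 1. A ratio above 1 in favour of replicate 1 was the commoner case, at 189 of 288 genes (65.6%). These shares come from the same contrast that the choice of the cluster used, so nothing is read from them.

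The 1.5-fold calls rested on the scaling. Scaling by TMM or by DESeq2 size factors lowered the median log2 ratio of all genes from 0.10 to -0.0031 and -0.02. Under TMM the log2 ratio was 0.56 for Mir96, 0.51 for Mir183 and 0.21 for Mir182, and under DESeq2 it was 0.55, 0.49 and 0.19. All 3 stayed higher in replicate 1, and 0 of 3 passed 1.5-fold under either scaling. The 16 genes past 1.5-fold were then split 8 to 8 between the libraries under both, in place of 14 to 3. With 1 library on each side these ratios compare libraries, not conditions.

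**Figure D3:**
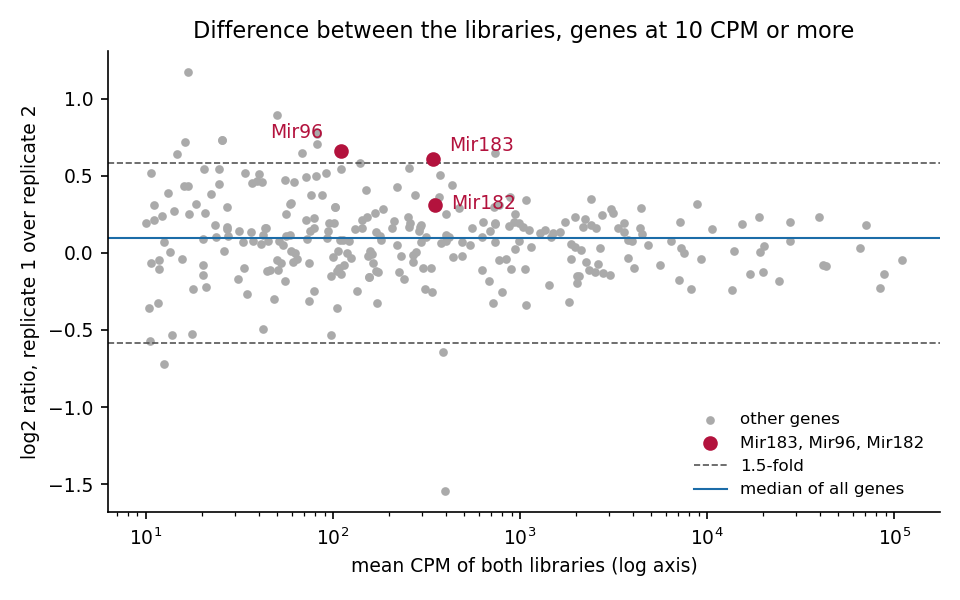
Log2 ratio of replicate 1 over replicate 2 (1 CPM added, y axis) against mean CPM (log x axis) for the 288 genes at 10 CPM or more, with the cluster in red. Mir96 and Mir183 lie just past the dashed 1.5-fold line, at 0.66 and 0.61, and Mir182 lies inside it at 0.31; the blue line is the median of all genes, 0.10.

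Marker miRNAs of other tissues gave the setting for these levels. The heart muscle miRNAs Mir208b, Mir208a and Mir499, encoded in introns of myosin genes, were present at 42964 ± 1728, 7263 ± 121 and 1825 ± 281 CPM. The cardiomyocyte list summed to 64.9 times the Mir183 cluster, the smooth muscle list (led by Mir143) to 111 times and endothelial Mir126a to 87.8 times. The other rows of the cardiomyocyte list, Mir1a-1, Mir133a-1 and Mir133a-2, held 4.07, 2.89 and 0 CPM. They share a 20-nucleotide run with another miRNA gene, so they and the sum of their list may be undercounted. By summed CPM, the lists closest to the cluster were the leukocyte, the endocrine and endoderm, and the erythroid list. Sums depend on the rows each list holds, and a like sum does not show a shared cell of origin. The epithelial list, the miR-200 family with Mir203 and Mir205, summed to 2163 ± 378 CPM, or 2.70 times the cluster. The erythroid list summed to 1110 ± 213 CPM, the endocrine and endoderm list to 1079 ± 374 and the leukocyte list to 589 ± 103, against 802 ± 190 CPM for the cluster. The leukocyte sum covers Mir223, Mir155, Mir146 and Mir150, and holds no row for Mir142. Mir146, Mir194-1 and Mir194-2 also share a 20-nucleotide run with another miRNA gene. The leukocyte and the endocrine and endoderm sums may therefore be undercounted too.

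The sensory and neural list lay below the cluster, at 368 ± 43.5 CPM for 15 rows. Its highest rows were Mir204, known from retinal pigment epithelium and choroid plexus, at 100.5 ± 1.20 CPM, Mir128-1 at 94.5 ± 6.74 and Mir137, a neural miRNA, at 67.9 ± 21.5. Mir182 and Mir183 each exceeded every row of that list in both libraries, while Mir96 lay above Mir204 in replicate 1 (136 against 99.6 CPM) and below it in replicate 2 (85.6 against 101 CPM). The defining neuronal rows Mir124a-1, Mir124a-2, Mir124a-3 and Mir9-2 held 0 counts in both libraries. These 4 rows share a 20-nucleotide run with another miRNA gene, so their reads could be in the multi-mapping class, and their 0 counts do not show that neural RNA was missing. Mir9-3 held 14 and 9 counts. It shares such a run too, as do Mir128-1, Mir128-2, Mir7-1, Mir7-2, Mir219a-1 and Mir219a-2. Most rows of the list, and its sum, may therefore be undercounted beside the cluster, whose hairpins share no such run.

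**Figure D4:**
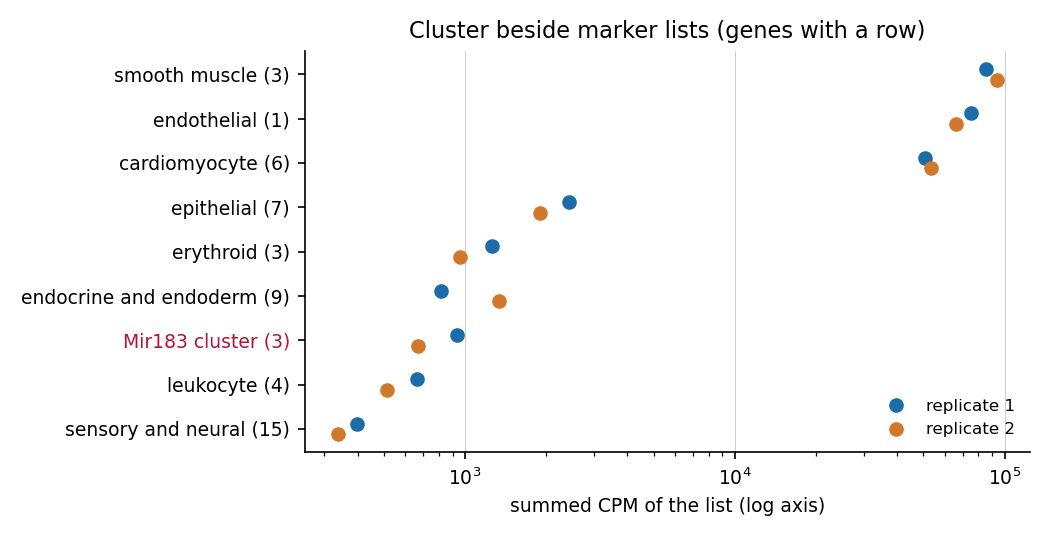
Summed CPM of each marker list and of the cluster (log x axis), 1 point per library, with the number of gene rows in parentheses. The cluster, whose replicates reached 936 and 668 CPM, lies by its mean between the leukocyte and the endocrine and endoderm lists, is above the latter in replicate 1, and is far below the heart muscle, endothelial and smooth muscle lists.

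Library ratios of the marker lists are given beside those of all genes. On total counts the median log2 ratio of all 288 genes was itself above 0, at 0.10, the same side as the cluster. The cluster had a median log2 ratio of replicate 1 over replicate 2 of 0.61, with 3 of 3 genes above 0. The share of all 288 genes above 0 was 65.6% on total counts and 49.3% (142 genes) under TMM. Of epithelial genes 7 of 7 were above 0 with a median of 0.31, and 6 of 7 under TMM. Summed epithelial CPM was 2430 in replicate 1 and 1895 in replicate 2. Erythroid genes were above 0 at 3 of 3 with a median of 0.55 (summed 1261 and 959 CPM), and leukocyte genes at 2 of 3 with a median of 0.51 (662 and 516 CPM). On total counts, 2 of 3 is close to the share of all genes. In the sensory and neural list 6 of 7 genes at 10 CPM were above 0 with a median of 0.26 (399 and 337 CPM). The counts of erythroid, leukocyte, and sensory and neural genes above 0 were equal under TMM. Beside 5.90% of all genes, those past 1.5-fold on total counts were Mir137 (0.65) and Mir7b (0.72) of that list, epithelial Mir205 (0.59), erythroid Mir486 (0.71) and leukocyte Mir146 (0.90). Under TMM and DESeq2 scaling Mir137 (0.55 and 0.53) and Mir205 (0.48 and 0.47) no longer passed, and the other 3 did.

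Of the main cell types of a heart, endothelial Mir126a was on the same side as the cluster, at 0.18 (0.08 under TMM). The smooth muscle list had a median of -0.12, with 0 of 2 genes above 0. The cardiomyocyte list (50724 and 53395 CPM) had a median of -0.08, with 1 of 3 genes above 0 and 0 of 3 under TMM. In the endocrine and endoderm list (815 and 1343 CPM) the median was -0.25, with 2 of 6 genes above 0, Mir215 at 0.29 and Mir192 at 0.11. Under DESeq2 scaling 1 of 6 was above 0. The hepatocyte miRNA Mir122 at -1.55 and the endocrine miRNA Mir375 at -0.65 were past 1.5-fold in the other direction. Across all 288 genes the median was 0.10. Whether a different share of other tissue in the dissected hearts had a part in the higher cluster level of replicate 1 was not tested.

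Compared with other genomic clusters, the 3 hairpins had similar counted levels. The highest gene, Mir182, exceeded the lowest, Mir96, by 3.16-fold in mean CPM. Clusters were formed from annotated positions, with starts at most 10000 nucleotides apart on 1 strand, and 41 had at least 2 genes at 10 CPM or more. Their fold range had a median of 19.4, from 1.13 for Mir421 and Mir374b to 2543 for the Mir322 cluster on the X chromosome. A smaller fold range than that of the Mir183 cluster was found in 8 of 41. Including this cluster, 6 had 3 such genes, and none of them had a smaller range by mean CPM. That order did not hold in replicate 1 alone. There Mir293 (59.8 CPM) exceeded Mir292 (20.6 CPM) by a smaller ratio than Mir183 (412 CPM) exceeded Mir96 (136 CPM).

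The 5 other clusters with 3 such genes show how far neighbours can differ. Ranges and summed levels cover only genes at 10 CPM or more, so a cluster with genes below that minimum has a wider full range. With genes at 1 CPM or more, 8 of 45 clusters had a smaller range than the Mir183 cluster. Mir293 exceeded Mir292 by 3.30-fold in the embryonic stem cell cluster, whose summed level was 105 CPM. Mir429 (884 CPM) exceeded Mir200a (43.2 CPM) by 20.5-fold in the epithelial cluster, whose summed level was 1180 CPM. Mir93 exceeded Mir25 by 24.4-fold and Mir23a exceeded Mir27a by 84.4-fold. Mir341 exceeded Mir1188 by 45.8-fold in the cluster nearest in summed level to the Mir183 cluster, at 793 against 802 CPM. Rows that share a 20-nucleotide run with another locus may be undercounted. Without them, 25 clusters were left with a median fold range of 11.4, of which 6 had a smaller range than the Mir183 cluster.

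**Figure D5:**
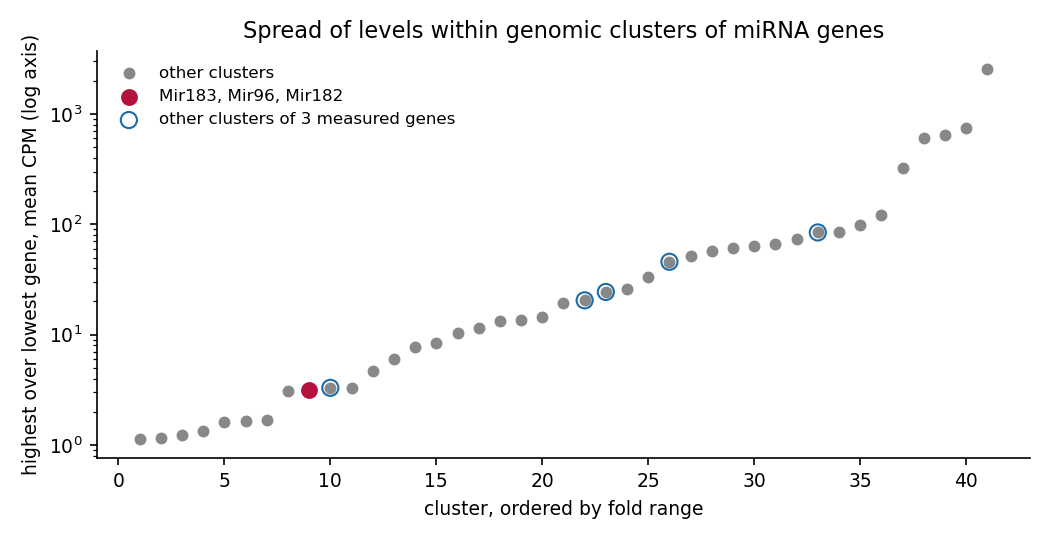
Highest over lowest gene by mean CPM (log y axis) for 41 genomic clusters with at least 2 genes at 10 CPM or more, ordered from the smallest fold range. The Mir183 cluster (red, 3.16-fold) is ninth from the bottom, and the 5 other clusters of 3 such genes (blue rings) run from 3.30-fold to 84.4-fold.

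Other annotated miRNA genes within 1000000 nucleotides on chromosome 6 ranged widely in level, and Mir29a lay between Mir96 and Mir183. Mir335, the most abundant row of both libraries, lies 571561 nucleotides away on the plus strand at 110067 ± 2450 CPM, or 314 times Mir182. Mir29a, an inhibitor of collagen genes, lies 892922 nucleotides away at 226 ± 13.7 CPM, and Mir29b-1 of the same cluster held 3.44 ± 0.0468 CPM. The rows of Gm26220 and Gm23049 held 1 and 0 counts over both libraries. Unlike the 3 sensory genes, Mir335 (log2 -0.05), Mir29a (-0.12) and Mir29b-1 (-0.02) were not higher in replicate 1.

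The genes whose levels were most like those of the cluster were found by the distance between log2 CPM values over both libraries, a likeness of level over 2 libraries only. Nearest to Mir182 were Mir125b-1 (distance 0.0357, 345 ± 55.4 CPM), Mir203 (0.0665, 362 ± 54.9 CPM) and Mir374b (0.109, 369 ± 65.2 CPM). Nearest to Mir183 were Mir125b-1 (0.206), Mir223 (0.220, 375 ± 92.6 CPM) and Mir182 itself (0.229). Nearest to Mir96 were Mir490 (0.0879, 111 ± 29.4 CPM), Mirlet7c-1 (0.284, 103 ± 15.1 CPM) and Gm23935 (0.287, 102 ± 15.1 CPM).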

How the data were processed

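For each of 2 microRNA-seq libraries the authors deposited a table of raw counts, 1 row per miRNA gene. Accompanying notes name mm10 as the assembly and M4 as the GENCODE release behind them. Which aligner, counter and trimming were used is not given in the sources used here. Sense counts (the third column) totalled 5569959 in replicate 1 and 6039005 in replicate 2, out of 12136246 and 12282789 reads. The 4 read classes stayed out of these totals; multi-mapping reads were 26.9% and 28.0% of all reads and unmapped reads 21.2% and 17.2%. CPM was computed on sense totals. A count of 0 was taken to allow up to 3 counts, a set limit apart from the exact intervals. Nothing in the labels says that the libraries came from separate animals or pools beyond separate biosample records.

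Symbols and positions were looked up in GENCODE M21, also on mm10 (1894 of 1973 identifiers matched, ignoring versions). Intervals are exact at 95%. No test was run, since the data hold no contrast between conditions and the cluster and all lists were chosen with earlier results of these data known. TMM factors came from edgeR 4.0.16 and size factors from DESeq2 1.42.0 (R 4.3.3). Python 3.11.15, numpy 2.4.6, pandas 2.3.3, scipy 1.17.1 and matplotlib 3.10.9 did the rest, and the ratio and cluster steps were tested on simulated data. Named genes were the cluster, genes sharing a seed with it, the 3 nearest in level to each member, miRNA genes within 1000000 nucleotides, leading genes of the marker lists, and the extreme and comparable clusters. Mir7b, Mir192, Mir205, and the comparison of gene pairs within clusters, were chosen after values were seen.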

Additional observations from a re-analysis of the deposited data

How the results depend on the processing

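Of 78 alternative values, 63 moved by less than the spread between the libraries or the counting interval (for counts of genes or clusters, by less than 1.5 times) and 15 moved by more. The 63 include values that could not move by more. With 2 libraries, leaving a library out always moves a level, share or hairpin ratio by less than the SD. The fold range of the cluster could not change with the gap, the lower CPM minimum or the removal of shared runs. The 63 are therefore no measure of robustness. The sign changed for the log2 ratio of Mir183 over Mir182 with replicate 2 left out and for no other result. Counted per 1000000 of all reads, in place of sense counts, Mir183 fell to 161, Mir96 to 52.3 and Mir182 to 166, and the cluster share to 0.0379%. The log2 ratio of replicate 1 over replicate 2 moved beyond its counting interval for Mir183 (0.51 with TMM, 0.49 with DESeq2, 0.51 with the median gene set to 0) and for Mir182 (0.21, 0.19 and 0.21). That of Mir96 stayed within its wider interval under these 3 settings, at 0.55 to 0.56. The number of genes past 1.5-fold, 17 as reported, was 70 at a mean of 1 CPM or more, 6 at 100 CPM or more, 139 with no filter and 2 at a fold of 2. Mir183 and Mir96 were among them at every minimum and pseudocount tried, and not at a fold of 2, with TMM or with DESeq2.

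With each library left out in turn, the level ran from 269.9 to 412 CPM for Mir183, from 85.6 to 136 CPM for Mir96 and from 312 to 388 CPM for Mir182. The log2 ratio of Mir183 over Mir182 ran from -0.21 to 0.09, so its sign rested on the library used. The log2 fold range of the cluster ran from 1.60 to 1.87, and 9 clusters had a smaller range in either library. With 2 libraries, a lone library carries no estimate of its spread. The lowest count among the 3 genes was 517, and the spread between libraries exceeded the counting intervals.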
